A study of Mus musculus with 6 samples.

Results

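Proteasome subunit genes were taken as the 48 of 14098 genes in the deposited single-cell UMI table whose symbols begin with Psma, Psmb, Psmc, Psmd, Psme or Psmg. They comprised 8 genes of the 20S α rings, 10 of the 20S β rings, 6 of the 19S ATPase ring, 14 with Psmd symbols, 5 of the proteasome activators and 4 chaperones of core assembly (Psmg). Most Psmd genes encode other 19S subunits, while Psmd5, Psmd9 and Psmd10 encode chaperones of 19S assembly. The remaining symbol, Psmc3ip, encodes a cofactor of meiotic recombination and no subunit, and Psme2b is a retrocopy of Psme2. The 5 immunoproteasome genes Psmb8, Psmb9, Psmb10, Psme1 and Psme2 were set against the other 43. The cells were EGFP+ regulatory T (Treg) cells, sorted from spleen. The C57BL/6 mice were 18 to 21 weeks old and had been given tamoxifen. The study compared 3 mice of the genotype Bach2+/+ Foxp3EGFP-Cre-ERT2 (WT) with 3 of the genotype Bach2fl/fl Foxp3EGFP-Cre-ERT2 (cKO), in which a tamoxifen-dependent Cre from the Foxp3 locus acts on floxed Bach2. Both groups carried the Foxp3 reporter and Cre allele and both received tamoxifen. The table's cell columns carry barcodes with a suffix from 1 to 6, and none of the 10685 names a sample, so genotypes were not compared. Each suffix is called a barcode set, and all values below are over the 6 sets together or their range.

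The 26S proteasome degrades proteins tagged with ubiquitin. Its 20S core is a barrel of α and β rings with the proteolytic sites inside, encoded by Psmb5, Psmb6 and Psmb7, and the 19S cap binds ubiquitin, unfolds the substrate with its ATPases (Psmc genes) and feeds it into the core. In lymphocytes and in cells exposed to interferon, Psmb8 (LMP7), Psmb9 (LMP2) and Psmb10 (MECL-1) take the places of Psmb5, Psmb6 and Psmb7 to give the immunoproteasome, which shapes the peptides shown on MHC class I. Psme1 and Psme2 form the PA28αβ ring that opens the core, Psme3 forms the nuclear PA28γ ring, and Psme4 encodes PA200.

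The genes of this switch and their surroundings are shown because the comparisons below turn on them. On mouse GRCm38 (mm10), in the GENCODE annotation, Psmb9 (chr17:34181987-34187764, minus strand), Tap1 (chr17:34187553-34197225), Psmb8 (chr17:34197721-34201454, plus strand) and Tap2 (chr17:34203527-34216321) follow each other in the MHC, with Psmb9 and Tap1 overlapping at their 5′ ends. Psmb10 lies at chr8:105935735-105938444 on the minus strand, and Psme1 (chr14:55578123-55581529, plus) and Psme2 (chr14:55587441-55591113, minus) point towards each other. The sequences below are RefSeq promoters (GRCm38.p6), cut to the bases before any annotated exon and written 5′ to 3′ on the gene's strand. They are those of Psmb10, which had the highest ratio of the immunoproteasome genes in interferon-responding cells, of Psme2, which had the highest of those called in TCR-responding cells, and of the constitutive Psmb5 and Psmb6, whose capitals mark the antioxidant response motif TGACNNNGC. The stretches are chr8:105938445-105938642, chr14:55591114-55591351, chr14:54618023-54618245 (minus strand, all 3) and chr11:70525107-70525356 (plus strand).
Psmb10: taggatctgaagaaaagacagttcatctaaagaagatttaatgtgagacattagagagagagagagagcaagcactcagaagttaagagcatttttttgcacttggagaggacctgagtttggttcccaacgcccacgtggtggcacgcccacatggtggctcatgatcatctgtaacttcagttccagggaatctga
Psme2: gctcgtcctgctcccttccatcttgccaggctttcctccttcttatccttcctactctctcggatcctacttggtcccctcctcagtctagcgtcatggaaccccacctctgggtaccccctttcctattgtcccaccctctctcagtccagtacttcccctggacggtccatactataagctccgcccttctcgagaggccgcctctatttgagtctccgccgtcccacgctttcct
Psmb5: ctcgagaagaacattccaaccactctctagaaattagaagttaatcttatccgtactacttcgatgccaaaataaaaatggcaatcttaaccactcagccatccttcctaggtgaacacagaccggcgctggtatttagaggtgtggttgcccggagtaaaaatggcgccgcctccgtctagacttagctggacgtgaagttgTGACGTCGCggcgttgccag
Psmb6: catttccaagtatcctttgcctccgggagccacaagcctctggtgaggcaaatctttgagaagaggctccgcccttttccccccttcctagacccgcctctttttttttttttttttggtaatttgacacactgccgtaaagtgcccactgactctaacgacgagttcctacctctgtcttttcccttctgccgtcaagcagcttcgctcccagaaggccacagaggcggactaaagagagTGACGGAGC
Of the 48 members, 40 had an entry in the promoter table. In the 250 bases before the start, on both strands, TGACNNNGC was in 0 of 5 immunoproteasome genes and 5 of 35 others (Psmb5, Psmb6, Psmc6, Psmd12 and Psmd9), beside 11.5% of all 27025 genes. The windows of Psmb8 and Psmb9 lie wholly in annotated exons, so their counts describe those letters and no upstream sequence. That of Psme1 holds 139 exon bases of 250. Windows of the other members are also exonic, wholly for Psma4, Psmd13 and Psme2b and largely for some more, such as Psmd1 (232 bases). Their counts carry the same limit.

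The sets held 1641 to 1902 cells and 3998172 to 4786590 UMIs each. Of all cells, 141 carried markers of other cell types (94 B cell, 42 myeloid, 4 erythroid and 1 CD8 or NK) and 310 had under 1000 UMIs, which left 10234 scored Treg cells with a median of 2127 UMIs. Levels are UMIs per 1000000 UMIs (CPM). The scored cells expressed the Treg genes Foxp3 (19.98 to 22.99 CPM by set) and Ikzf2 (863 to 1124 CPM). Bach2, the targeted gene, was at 18.9 to 36.6 CPM by set. The labels do not say which exons are floxed, and 3′ tags outside them would not show the deletion. The 5 erythroid genes summed to 2.84 to 267 CPM by set. Across the sets, 63 barcodes occurred more than once, in 126 cells, and no count of called members below changed by over 1.5 times without them. No doublet caller was run.

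Subunit RNA made up a small share of the Treg transcriptome. The 48 members together gave 196728 UMIs, or 0.775% of all UMIs, and the 5 immunoproteasome genes gave 33.1% of these. Within scored cells that share was between 32.4% and 33.4% in each of the 6 sets. The summed level of all members was 7610, 7085, 7332, 8138, 8391 and 8081 CPM in sets 1 to 6, so it was higher in sets 4, 5 and 6 than in the others. The sets also differed in cell states, which are defined below. Effector cells were 17.1%, 18.5%, 14.8%, 29.7%, 29.1% and 24.7% of scored cells in sets 1 to 6. Resting cells were 16.6%, 19.5%, 18.9%, 11.1%, 10.6% and 11.6%. The part of these shares in the summed levels was not tested. These 3′ tags count molecules and not length, so CPM is compared between genes without scaling to transcript length, although capture differs between genes.

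Among the β genes, Psmb8 had the highest level of any member at 943 CPM, with 825 to 1025 CPM across the sets. Its constitutive counterpart Psmb5, the chymotrypsin-like subunit, was at 165 CPM (140.1 to 184 across sets), so that the ratio of Psmb8 to Psmb5 was 5.70. The other pairs were closer. Psmb9 was at 297 CPM and Psmb6, the caspase-like subunit, at 222 CPM, and Psmb10 was at 228 CPM and Psmb7, the trypsin-like subunit, at 107 CPM, the lowest β gene. In every set Psmb8, Psmb9 and Psmb10 were above their counterparts.

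The α rings were led by Psma7 (394 CPM), and Psma8, a paralogue known from the testis, had 6 UMIs in all scored cells. In the 19S cap the highest ATPase was Psmc3 (142 CPM) and the lowest Psmc1 (54.3 CPM). Of the other 19S genes, Psmd4, a ubiquitin receptor, was highest at 188 CPM and Psmd1, a scaffold, lowest at 35.9 CPM. Among the activators Psme1 (594 CPM) and Psme2 (511 CPM) stood far above Psme3 (41.6 CPM) and Psme4 (12.1 CPM). The chaperones ran from Psmg3 (28.5 CPM) to Psmg4 (77.4 CPM). The highest set was a median of 1.24 times the lowest over the immunoproteasome genes and 1.24 times over the other members with a UMI in every set, and Psmc1 varied most among the subunits, from 37.7 to 73.3 CPM.

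Psme2 and Psme2b share 76.1% and 75.7% of the 31-base words in their last 400 transcript bases, so the separate value of either is uncertain. Large shared stretches with pseudogenes or other annotated transcripts were also found for Psmb3 (74.9%), Psmd1 (74.3%), Psma5 (71.1%) and Psmb5 (68.4%). Psmb8, Psmb9 and Psmb10 shared none, and Psmb6 and Psmb7 shared 11.9% and 4.86%. The part of such sharing in the level of Psmb5, and so in the ratio of Psmb8 to Psmb5, was not tested.

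**Figure D1:**
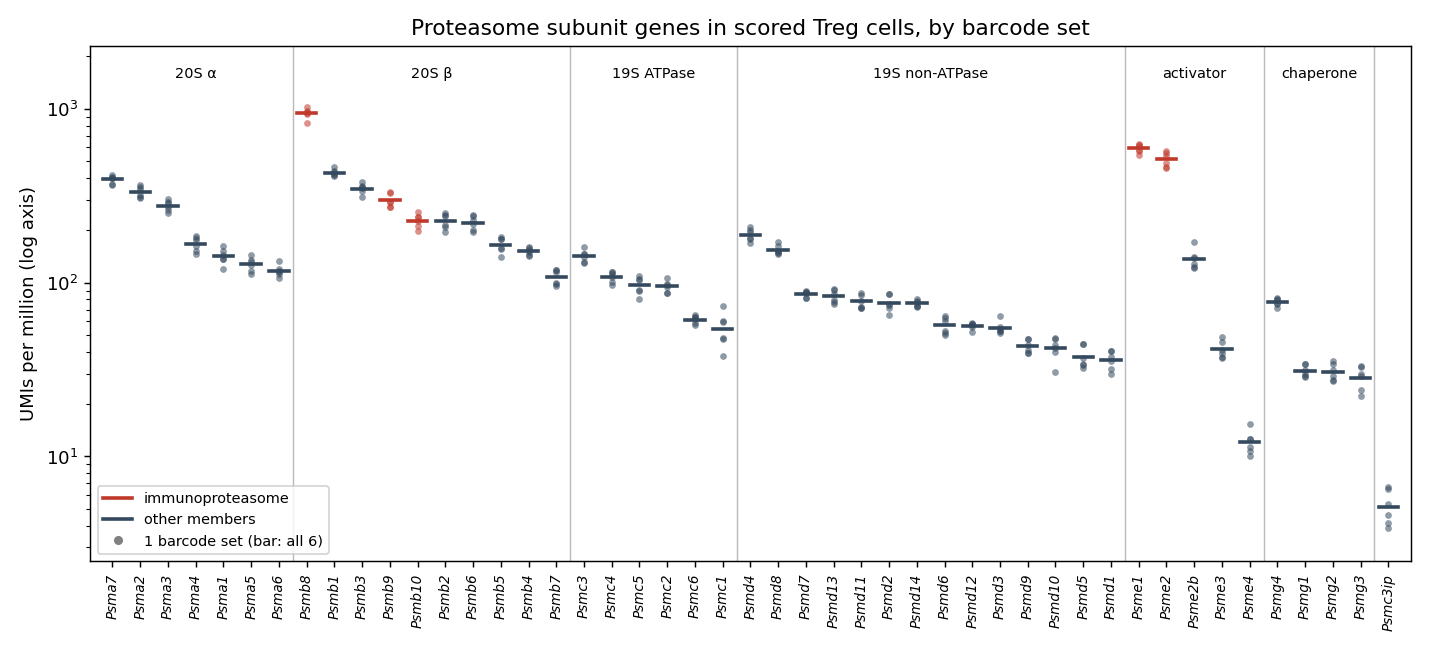
Levels of 47 subunit genes in scored Treg cells, in CPM on a log axis, ordered by class. Each point is 1 barcode set and each bar all 6 together, with the immunoproteasome genes in red. Psmb8 sits above every other member and Psme1 and Psme2 above the other activators. Psma8, with 6 UMIs, is left out.

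Cells were then placed in states by the number of distinct marker genes detected after each cell was thinned to 1000 UMIs. Cells with at least 4 cycling markers (such as Mki67 and Top2a) were called cycling (47 cells), those with at least 3 interferon-stimulated markers (Ifit and Oas genes and the like) interferon-responding (412), and those with at least 3 markers of recent T cell receptor signalling (Nr4a and Egr genes and the like) TCR-responding (279). The other 9496, the remaining cells, were resting (1514), intermediate (5712) or effector (2270) by the balance of lymph-node homing and effector markers. States are ranges of marker counts and not cell types. No subunit gene was a marker. A gene was called when its log2 ratio of CPM was at least 0.32 in size, up or down, with all 6 sets going the same way, among genes with at least 200 UMIs over both sides together and at least 20 expected on each. No test was made, because the replicates of this design are mice and no cell is tied to one, and the 95% intervals cover counting error only. The TCR-responding, interferon-responding and cycling comparisons share their reference cells.

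In interferon-responding cells the immunoproteasome genes were higher, and no constitutive subunit gene was called. Of 45 members tested, 5 were called higher and 0 lower, and the 5 were Psmb8, Psmb9, Psmb10, Psme1 and Psme2. Of all genes tested in this comparison 3.22% were called higher and 0.816% lower. The other 40 members had a median log2 ratio of 0.09, the 5 one of 0.40 and all genes one of -0.03.

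Psmb10 had the highest ratio. It had 260.0, 343 and 415 CPM in the lowest, median and highest set of interferon-responding cells, and 197, 224 and 249.9 CPM in the remaining cells, so the sets did not overlap. Pooled, it was at 345 against 223 CPM, a log2 ratio of 0.63 (0.46 to 0.79). Psmb9, transcribed divergently from Tap1, had 333, 388 and 507 CPM in the lowest, median and highest set against 263, 284 and 326 CPM, again with no overlap, and a log2 ratio of 0.44 (0.29 to 0.59). Psmb8, already the most abundant member, was higher in each set than the same set's remaining cells, but its ranges over the sets overlapped (988 to 1359.8 against 820.4 to 1016 CPM). Its pooled log2 ratio was 0.34 (0.25 to 0.43). For the PA28αβ ring, Psme2 was at 653 against 494 CPM with a log2 ratio of 0.40 (0.29 to 0.52), and its sets did not overlap. Psme1 was at 760.2 against 585 CPM, with a log2 ratio of 0.38 (0.27 to 0.48) and overlapping sets.

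The constitutive counterparts were not called. Psmb5 had a log2 ratio of 0.10 (-0.13 to 0.32), Psmb6 one of 0.12 (-0.07 to 0.31) and Psmb7 one of 0.13 (-0.16 to 0.40). Psme3, of the PA28γ ring, had the lowest value of any member tested, -0.47 (-1.06 to 0.06), with 2 of 6 sets higher. Psme2b, which cannot be separated fully from Psme2, had 0.47 (0.24 to 0.68) and was higher in 5 of 6 sets. All 7 α genes tested lay between 0.02 and 0.24, and the 6 ATPase genes between -0.37 and 0.08.

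Summed, the 5 immunoproteasome genes were at 3339 against 2529 CPM and the other members at 5366 against 5123 CPM. The immunoproteasome genes gave 0.622 against 0.494 UMIs per UMI of the other members, a log2 change of 0.33 (0.27 to 0.40) that was positive in 6 of 6 sets. By pair, the ratio of Psmb10 to Psmb7 was 3.02 against 2.14 and that of Psmb9 to Psmb6 1.67 against 1.33, both higher in 6 of 6 sets. The ratio of Psmb8 to Psmb5 was 6.81 against 5.77 and was higher in 5 of 6. The ratio of Psme1 to Psme2 was 1.16 against 1.18, with 3 of 6 sets higher.

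The immunoproteasome sum was higher in cells with more interferon markers, which is also how the state was set. With 0, 1 and 2 of the 21 markers, the immunoproteasome sum was 2493, 2578 and 2734 CPM. Beyond the threshold it was 3164 (3039 to 3293) CPM with 3 to 4 markers (304 cells) and 3873 (3632 to 4125) CPM with 5 or more (110 cells). The other members stayed between 5176 and 5456 CPM over the same 5 groups of cells. The plot of summed RNA by marker number shows both lines.

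Of the genes that load MHC class I, 3 of 13 tested were called higher in these cells and 0 lower, with a median log2 ratio of 0.29. They were Tapbp (tapasin, 0.74), the non-classical class I gene H2-T23 (0.70) and Nlrc5, a transactivator of class I genes (0.49). Tap1 (0.55) and Tap2 (0.52), the peptide transporter genes beside Psmb9 and Psmb8, were named after their values were seen and were higher in 5 of 6 sets. Of 8 interferon signalling genes tested 2 were called higher, among them Irf9 (162 against 85.7 CPM). Of the 18 tested partners of the proteasome (assembly, ubiquitin and shuttle factors) 0 were called either way, and the highest ratios were those of Akirin2, a nuclear import factor for proteasomes (0.31), and Psmf1, an inhibitor of the core (0.24). The partners had a median of 0.04 and the interferon signalling genes one of 0.37, beside -0.03 for all genes.

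The lowest of these 5 log2 ratios lay close to the limit of 0.32. With another random draw of the thinning only Psmb10 and Psme1 were called, beside 3.23% of all genes called higher. Other members were called higher in 6 of the 22 alternatives: with 1 marker fewer (Psme2b, beside Psmb10 alone), 1 marker more (Psmg4), states set at 500 UMIs (Psmc4), without set 4 (Psmd9 and Psme2b) or set 5 (Psmg3), and without other-type UMIs and the deepest 2% of cells (Psma4 and Psmd13). In these 6 alternatives 2.16% to 4.37% of all genes were called higher. The direction of the change in the ratio to the other members was the same in all 18 alternatives run, from 0.17 to 0.51 on the log2 scale. Depth and the share of UMIs from ribosomal protein genes were near those of the remaining cells, with medians of 2138.5 and 2122.5 UMIs and shares of 33.8% and 34.8%.

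**Figure D2:**
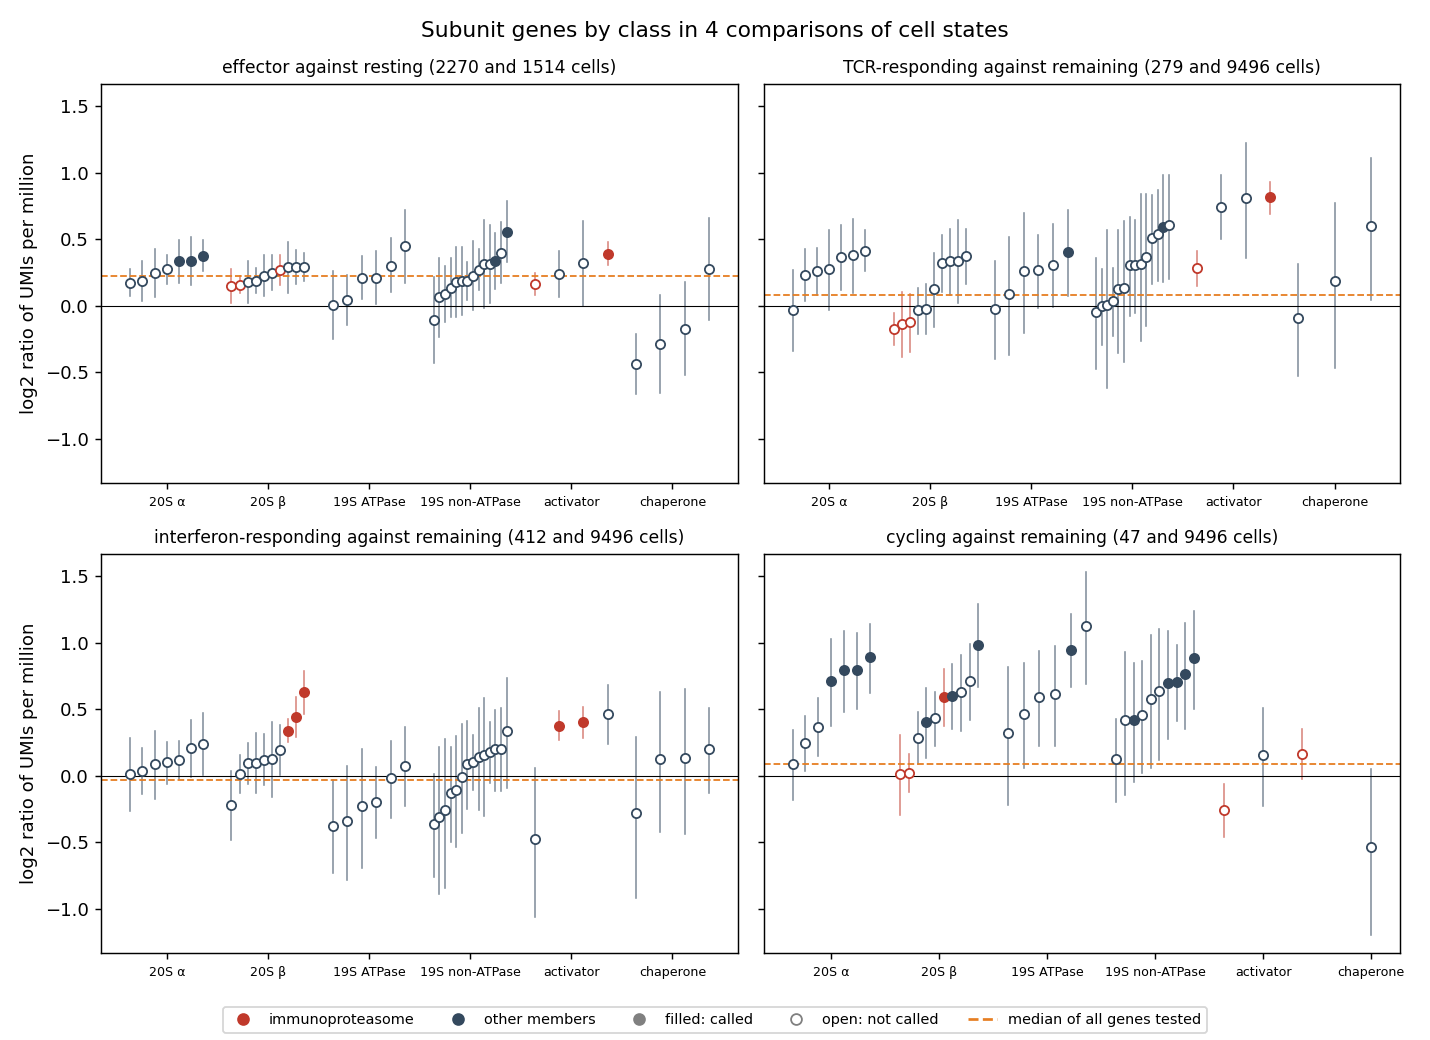
Log2 ratio of CPM for every tested member in 4 comparisons, by class, with 95% counting intervals. Red marks immunoproteasome genes, filled points those called, and the dashed line the median of all genes tested. In interferon-responding cells the 5 filled points are all red. In cycling cells 13 of the 14 filled points are other members.

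In cycling cells genes of the 20S core and the 19S cap were higher, and of the immunoproteasome genes Psmb9 alone was called. Of 37 members tested, 14 were called higher and 0 lower, beside 17.8% of all genes called higher and 8.89% lower. The 14 were 13 of 32 tested other members and 1 of 5 immunoproteasome genes, Psmb9. The median log2 ratio was 0.60 over the other members, 0.02 over the immunoproteasome genes and 0.09 over all genes.

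The highest called ratio was that of Psmb7, with 159, 184 and 299 CPM in the lowest, median and highest set against 94.1, 105 and 116 CPM in the remaining cells, a log2 ratio of 0.99 (0.66 to 1.29). Its immunoproteasome counterpart Psmb10 was at 225 against 223 CPM, with a log2 ratio of 0.01 (-0.29 to 0.30) and 2 of 6 sets higher. The ratio of Psmb10 to Psmb7 was 1.09 against 2.14, lower in 6 of 6 sets, while that of Psmb9 to Psmb6 was 1.52 against 1.33 and higher in 4 of 6. Psmb5 had a log2 ratio of 0.63 (0.34 to 0.91) with 5 of 6 sets higher and was not called, while Psmb6 (0.40, interval 0.13 to 0.66) was. Psmb8 stood at 951 against 936 CPM, a log2 ratio of 0.02 (-0.12 to 0.16), and the ratio of Psmb8 to Psmb5 was 3.79 against 5.77 with 1 of 6 sets higher. Psmb9 departed from its group at 439 against 291 CPM, a log2 ratio of 0.59 (0.38 to 0.80). Its call was lost with states set at 500 UMIs, in the cells of the log-normalised table and with thinned cells weighted equally. It was also lost without other-type UMIs and the deepest 2% of cells, and relative to the median gene. The same held with ribosomal protein and mitochondrial genes left out of the totals.

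Every tested 19S ATPase was above the remaining cells, with log2 ratios from 0.32 to 1.13. Of these 6 genes Psmc3 alone was called (269.7 against 139.9 CPM, log2 ratio 0.95, interval 0.67 to 1.21), beside 17.8% of all genes called higher. The ATPase gene at 1.13 had the highest ratio of any member tested and was not called. The lid gene Psmd13 had a log2 ratio of 0.88 (0.50 to 1.24), and 5 of 10 tested non-ATPase genes were called. Of the 7 tested α genes 4 were called, with Psma4 (0.89), Psma1 (0.80) and Psma5 (0.79) first. None of the activators was called. Psme1 was at 491 against 585 CPM, with 1 of 6 sets higher, and Psme2 had a log2 ratio of 0.16 (-0.03 to 0.35). Psme3 had too few UMIs to be tested (74.4 against 40.6 CPM, 32 UMIs). Psmc3ip, the recombination cofactor, was also under the limit, with 14 UMIs in the cycling cells, at 32.5 against 4.86 CPM, and its sets did not overlap.

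Summed, the other members were at 7269 against 5123 CPM, a log2 ratio of 0.50 (0.45 to 0.56), and the immunoproteasome genes at 2659 against 2529 CPM, 0.07 (-0.01 to 0.16). The ratio between the sums was 0.366 against 0.494, a log2 change of -0.43 (-0.53 to -0.33) that was negative in 6 of 6 sets. The other members went from 5084 CPM in cells without a cycling marker to 5453 CPM with 1 and 6604 (6382 to 6831) CPM with 2 to 3, below the threshold. The immunoproteasome sum was between 2560.0 and 2735 CPM in these groups and the cycling cells.

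Of 12 partners tested, 2 were called higher, Akirin2 (0.73) and Pomp (409 against 274 CPM), which is needed to mature the 20S core. Of 12 class I genes tested Pdia3, of the peptide-loading complex, was called (0.54), and of 7 interferon signalling genes 0 were, with Ifngr1 and Ifnar2 highest (-0.04 each). The medians of the 3 lists were 0.56, 0.01 and -0.49, beside 0.09 for all genes. These 47 cells, with 4 to 14 in a set, had a median of 8825 UMIs, 24.8% ribosomal protein UMIs and 195 CPM over the 10 myeloid markers (61.7 to 251 by set, 5 of 10 detected, with Tyrobp, Spi1, Cd68, Clec4a3 and S100a8 at 0), against 2122.5 UMIs, 34.8% and 166 CPM (122 to 210.1) in the remaining cells. The part of depth in these ratios was not tested. No member was called when thinned UMIs were used with cells weighted equally (3 members tested), or when other-type UMIs and the deepest 2% of cells were both left out (7 cycling cells, 1 tested), and 3 were made in the 22 cycling cells of the authors' log-normalised table. With ribosomal protein and mitochondrial genes left out of the totals 6 were called higher and 1 lower (Psme1), and relative to the median gene 9 and 1 (Psme1). The lower ratio of immunoproteasome to other members kept its direction under all 18 alternatives, from -0.49 to -0.30.

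**Figure D3:**
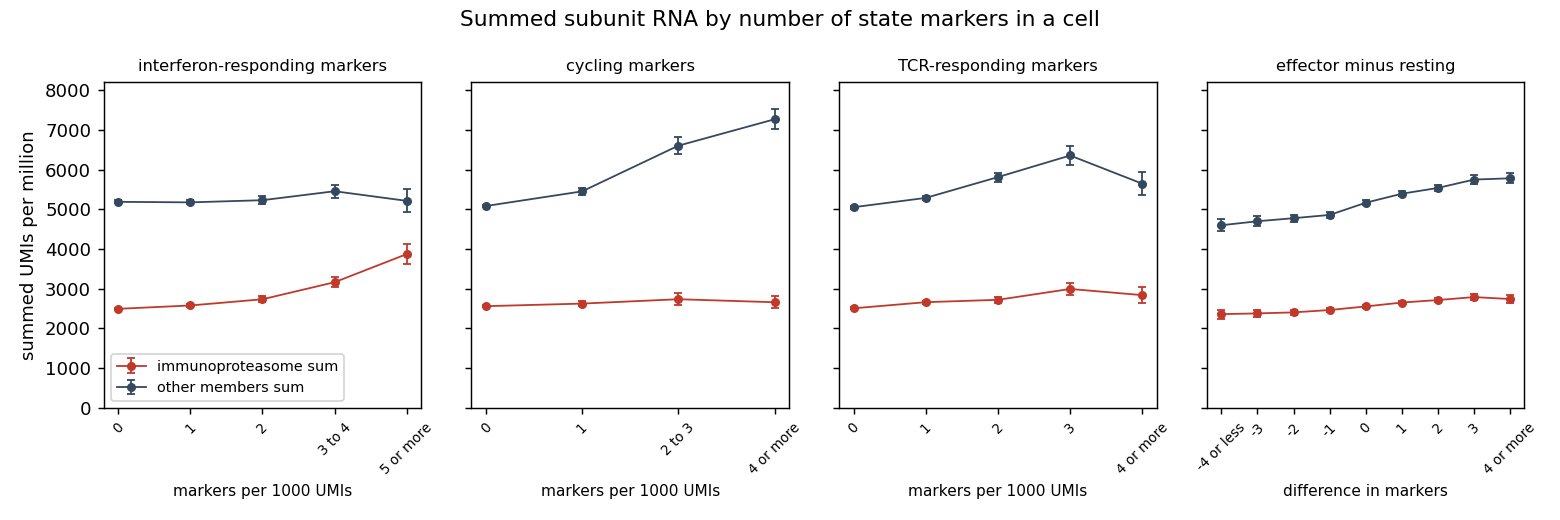
Summed CPM of the 5 immunoproteasome genes (red) and the other 43 members (blue) in cells grouped by the number of markers detected per 1000 UMIs, or by effector minus resting markers, with 95% Poisson intervals. The red line rises with interferon markers while the blue line is level, and the blue line rises with cycling markers while the red is level.

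In TCR-responding cells the activator gene Psme2 was higher, and no other immunoproteasome gene was called. Of 44 members tested, 3 were called higher and 0 lower, beside 10.2% of all genes called higher and 3% lower, so the share of members called was below that of all genes. The 3 were Psme2, the lid subunit gene Psmd3 and the ATPase Psmc2. The median over the members was 0.28 on the log2 scale and that over all genes 0.08. Ribosomal protein genes gave 30.1% of UMIs in these cells and 34.8% in the remaining cells, and with them and mitochondrial genes left out of the totals the median over all genes was -0.03.

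Psme2 was at 869 against 494 CPM, a log2 ratio of 0.82 (0.69 to 0.93). By set it had 537, 804 and 1165 CPM at the lowest, median and highest against 439.7, 493 and 557 CPM, so that the lowest set of TCR-responding cells lay within the range of the remaining cells. Psme2b (0.75, interval 0.50 to 0.98) and Psme3 (0.81, interval 0.36 to 1.22) had like values but were higher in 5 of 6 sets and were not called. Psme1, the partner of Psme2 in the ring, had 0.28 (0.15 to 0.41), higher in 6 of 6 sets but under the fold limit. The ratio of Psme1 to Psme2 was 0.819 against 1.18, lower in 6 of 6 sets, a log2 change of -0.53 (-0.71 to -0.36).

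The catalytic immunoproteasome genes had log2 ratios below 0. Psmb8 was at 831 against 936 CPM (-0.17, interval -0.29 to -0.05, 1 of 6 sets higher), Psmb9 had -0.12 (-0.34 to 0.09) and Psmb10 -0.13 (-0.39 to 0.11), and none was called. Psmb5 (0.34, interval 0.08 to 0.58), Psmb6 (0.32, interval 0.11 to 0.53) and Psmb7 (0.34, interval 0.02 to 0.64) had values above 0 and were not called either. The ratio of Psmb8 to Psmb5 was 4.06 against 5.77 and lower in 6 of 6 sets, a log2 change of -0.51 (-0.78 to -0.24). Psmb9 to Psmb6 (0.979 against 1.33) was lower in 4 of 6 sets and Psmb10 to Psmb7 (1.54 against 2.14) in 5. The 5 immunoproteasome genes over the other members gave 0.473 against 0.494, a log2 change of -0.06 (-0.14 to 0.02), with Psme1 and Psme2 above the remaining cells and the β genes below.

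Psmd3 (0.60, interval 0.18 to 0.98) had sets that did not overlap, 64.7 to 104 against 49.9 to 63.4 CPM, and Psmc2 had 0.41 (0.08 to 0.72). Of 16 partners tested Zfand5, a proteasome-binding zinc finger protein, was called higher (0.76), of 13 class I genes the chaperone Calr (0.53), and of 7 interferon signalling genes 0, with Irf1 (0.22) and Ifnar2 (0.16) highest. The medians of the 3 lists were 0.13, 0.16 and -0.29, beside 0.08 for all genes. With 31 to 58 cells in a set, the number of members called ran from 1 (1 marker more) to 8 over the 22 alternatives, and Psme2 was called in all 22. Without set 1, 3, 5 or 6 the number was 8, 7, 6 and 6, beside 12.6%, 12.5%, 12.8% and 13% of all genes called higher. With another random draw it was 7, beside 10.6% of all genes, and Psme2 was the only 1 of the 3 among them. Psmd3 and Psmc2 were also not called with states set at 500 UMIs, with 1 marker fewer or more, or with thinned cells weighted equally.

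**Figure D4:**
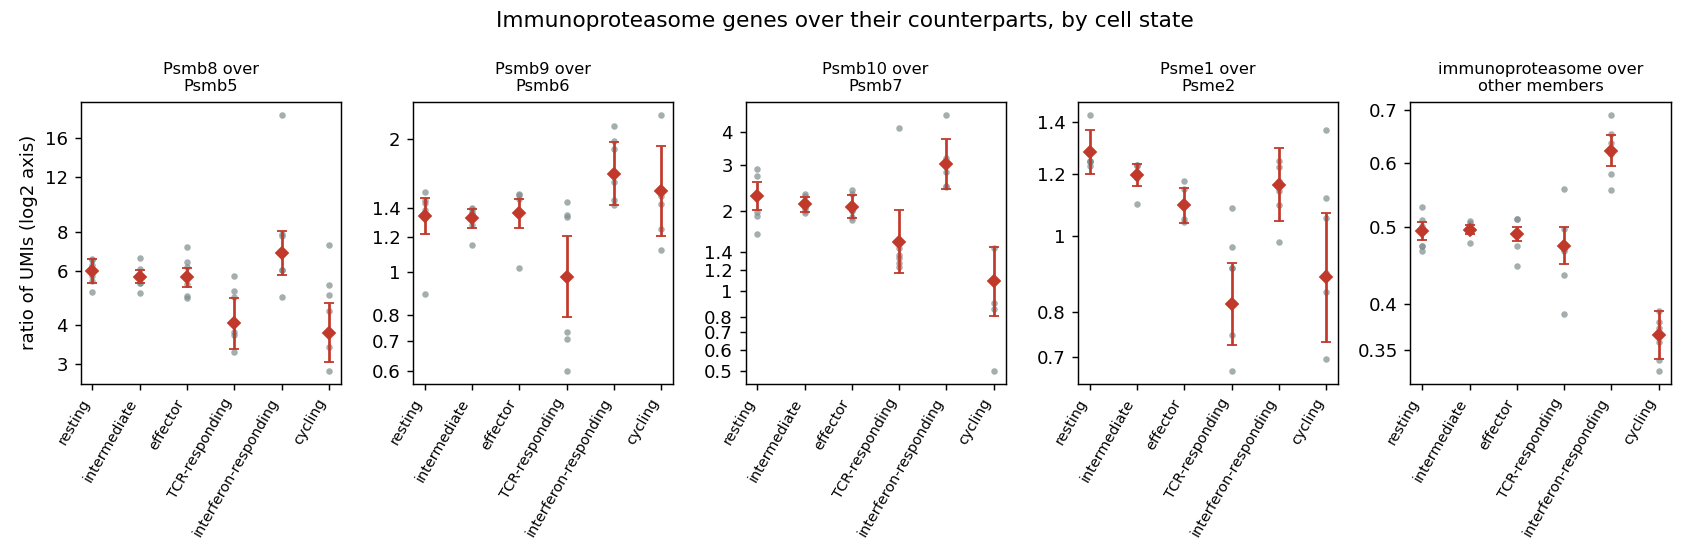
Ratio of UMIs of Psmb8, Psmb9 and Psmb10 to their constitutive counterparts, of Psme1 to Psme2, and of the 5 immunoproteasome genes to the other members, on log2 axes, in 6 states. Diamonds are all sets together with 95% counting intervals and grey points the 6 barcode sets. Resting, intermediate and effector cells lie close together except for Psme1 over Psme2, interferon-responding cells have the highest pooled ratio in all panels but that of Psme1 over Psme2, and cycling cells the lowest for Psmb8 over Psmb5, Psmb10 over Psmb7 and all members.

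Between effector and resting cells the subunit genes had the same median ratio as all genes, and their immunoproteasome share was alike. Of 45 members tested, 6 were called higher and 0 lower, beside 20.9% of all genes called higher and 4.28% lower. The median log2 ratio was 0.23 over the members and 0.23 over all genes tested. The immunoproteasome sum was at 2704 against 2324 CPM and that of the other members at 5522 against 4711 CPM, and their ratio changed by -0.01 (-0.06 to 0.04) on the log2 scale, with 3 of 6 sets higher.

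The called members were Psmd11 (0.56, interval 0.33 to 0.79), a lid subunit, Psme2 (0.39, interval 0.31 to 0.48), the α genes Psma3 (0.38), Psma6 (0.34) and Psma1 (0.33), and Psmd13 (0.34). Of these Psma1 had sets that did not overlap, 149 to 175 against 116 to 142 CPM. Psme2 again differed from Psme1 (0.17), and the ratio of Psme1 to Psme2 was 1.10 against 1.28, lower in 6 of 6 sets. Psmb8 (0.16), Psmb9 (0.27) and Psmb10 (0.15) lay near Psmb5 (0.23), Psmb6 (0.25), Psmb7 (0.29) and Psme3 (0.32), none of them called. The lowest log2 ratios of the members tested were those of Psmg4, at 62.6 against 84.8 CPM, Psmg1, at 25.3 against 30.9 CPM, and Psmg2 (-0.17), while the remaining Psmg gene, Psmg3, had 0.27. These genes were named after their values were seen, and none was called.

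Ribosomal protein genes gave 39.1% of UMIs in resting and 30.1% in effector cells, and median depth was 2510.5 and 1924.5 UMIs. With ribosomal protein and mitochondrial genes out of the totals, or with ratios relative to the median gene, 0 of 45 members were called higher. Of all genes tested, 8.24% and 8.15% were. The 4 members called lower were Psmg1, Psmg2, Psmg4 and Psmd5, a chaperone of 19S assembly. The share of all genes called lower under these scalings was not computed, so nothing can be read from this count about the members. The 10 myeloid markers summed to 203 CPM in effector cells (150.5 to 255 by set, 10 of 10 detected) and 134 CPM in resting cells (108 to 173, 8 of 10, with Csf1r and Clec4a3 at 0), and their part was not tested.

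Of 18 partners tested 7 were called higher, among them Zfand5 (0.59), Akirin2 (0.43) and Txnl1 (0.42), and 1 lower, the stress-response factor Nfe2l2 (-0.51). Of 13 class I genes 6 were called higher, among them Calr (0.64), H2-D1 (0.43), Tapbp (0.42) and H2-K1 (0.42). Of 7 interferon signalling genes Ifngr1 was (0.56). These counts stand beside the 20.9% of all genes called higher, and once the all-gene median of 0.23 is subtracted, Zfand5, Calr and Ifngr1 alone of the list genes called higher remain above 0.32. The medians of the 3 lists were 0.32, 0.31 and 0.16, beside 0.23 for all genes.

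Cells with markers of other types in the same table had a lower immunoproteasome share. The ratio of immunoproteasome to other members was 0.406 (0.361 to 0.457) in the 94 B cell-like and 0.413 (0.360 to 0.472) in the 42 myeloid-like cells, against 0.495 in the scored Treg cells. By set the B cell-like values were 0.311 to 0.463 and the Treg values 0.478 to 0.502, without overlap, while the myeloid-like values, 0.309 to 0.510, reached into the Treg range.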

How the data were processed

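Single-cell RNA of EGFP+ Treg cells was read with Chromium 3′ v2 chemistry, per the labels' protocols. The submitters' processing notes name FastQC, cutadapt, HISAT2, Cell Ranger, Seurat and mm10, with no version or order. The deposited table holds whole UMI counts of 14098 genes in 10685 cells. A second deposited table, in natural log units, holds 10464 of these cells and was used only to choose cells in 1 alternative. No column names a sample, so cells were not assigned to genotypes and no test between samples was made.

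Cells with at least 3 markers of B cells, myeloid cells, or CD8 and NK cells, or over 5% erythroid UMIs, were set aside, and Treg cells with at least 1000 UMIs were thinned to 1000 (seed 1) to set states only. Unthinned counts were then summed per state and set. Intervals at 95% were exact Poisson for levels, exact conditional binomial for ratios of 2 sums and normal on the log scale for changes of a ratio. Set-level log2 ratios had 0.5 UMI added. Named genes were the immunoproteasome genes and their counterparts, the extremes of each class, called members up to 6 each way, and list genes called up to 4 each way, else the 2 with the highest ratios. Alternatives changed the thinning, marker limits, order of states, totals, weights, call size, UMI minimum and cells kept. The members and lists were chosen with earlier results of these data known. Scripts were checked on simulated counts (Python 3.11.15, numpy 2.4.6, scipy 1.17.1, pandas 2.3.3, matplotlib 3.10.9). Some items of the gene lists and 2 motifs searched are not reported here.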

Additional observations from a re-analysis of the deposited data

How the results depend on the processing

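No paired analysis was possible because the cell columns carry no sample name or replicate number of the labels, so genotypes were not compared. States were compared within the same 6 barcode sets. In interferon-responding cells, 5 called higher became 2 with another random draw or 1 marker fewer (then 1 immunoproteasome gene, Psmb10), 3 with thinned cells weighted equally and 1 at a 1.5-fold limit, and 1 was called lower with 1 marker more or with thinned cells. Of all genes 3.23%, 2.16%, 3.73% and 1.72% were called higher under the first 4 of these settings. With thinned cells 37 members were tested, and at 1.5-fold 45. The log2 change of immunoproteasome over other members there, 0.33, was 0.17 with 1 marker fewer and 0.51 with 1 more. In TCR-responding cells 3 became 5 with states set at 500 UMIs, with 1 marker fewer or with no order of states, 7 with another draw or without other-type UMIs and the deepest 2% of cells (below, the deepest cells), and 1 with 1 marker more, and the log2 change, -0.06, was 0.075 at 500 UMIs. The share of all genes called higher was 11.4%, 8.37%, 9.81%, 10.6%, 10.5% and 8.84%, in that order. At 500 UMIs 26 members were tested, and with 1 marker more 28. Between effector and resting cells 6 became 2 with 1 marker fewer, thinned cells or the median of within-set ratios, and 0 at 1.5-fold. Of all genes 13.6%, 17%, 18.2% and 9.59% were then called higher, in that order, and 35 members were tested with thinned cells. With totals without ribosomal protein and mitochondrial genes, or relative to the median gene (added after seeing the data), 0 were higher and 4 lower. Of all genes 8.24% and 8.15% were then called higher. The gene Psmg4 alone was lower with another draw, 1 marker fewer, no order or without the deepest cells. The share of all genes called lower was not computed for the alternatives. The log2 change, -0.01, was -0.058 with 1 marker more and -0.060 with no order. In cycling cells 14 became 3 at 500 UMIs or in the cells of the log table, and 0 with thinned cells or without the deepest cells. The number was 6 with totals without ribosomal genes and 9 relative to the median gene, beside 10.1% and 13.5% of all genes called higher. Under both of these scalings, with 1 marker more and in the log table's cells, 1 (Psme1) was lower. At 500 UMIs and in the log table's cells 21 and 17 members were tested, and 12.1% and 11.8% of all genes were called higher. The log2 change was -0.30 with thinned cells, and Psmb6, 0.40, was -0.025 without the deepest cells. Leaving out 1 barcode set at a time gave 3 to 8 members called higher in TCR-responding, 4 to 7 in interferon-responding, 4 to 9 in effector and 14 to 18 in cycling cells, and 0 to 2 lower in interferon-responding and 0 to 1 in effector cells. With 1 set left out, a call needed only the sets kept to go the same way. The share of all genes called higher was then 11.9% to 13% in TCR-responding and 3.95% to 4.29% in interferon-responding cells. It was 22.5% to 25.5% in effector and 20.5% to 21.6% in cycling cells. With all 6 sets these shares were 10.2%, 3.22%, 20.9% and 17.8%. The 8 TCR-responding calls were without set 1, and the causes of these moves were not tested. Of 647 values of single genes under alternatives, 596 moved by less than their counting interval, and Psme3 had no UMI in the 7 cycling cells left without the deepest cells. The 2 alternatives added for shared barcodes and for the choice of reference cells, also chosen after seeing the data, moved no count by over 1.5 times. Members under 200 UMIs, and all but the most abundant in cycling cells, are limited by depth.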
